A study of Rattus norvegicus with 294 samples.

Results

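Lining cells of the vertebra on day 29 of treatment with an antibody against sclerostin were examined on 15 of the 294 arrays of the series. The 15 were all the arrays labelled as lining cells at 29 days: 5 from rats given vehicle, 5 from rats given 3 mg/kg and 5 from rats given 50 mg/kg of the antibody. At 50 mg/kg 23 genes were higher and 1 was lower than with vehicle, of 11601 tested, and the 23 held 5 of 11 fibrillar collagens, 5 of 29 other bone matrix genes and 3 of 21 enzymes and chaperones that act on collagen. No gene passed the same test at 3 mg/kg. Lists and their members were chosen with earlier results of these data known, so counts within lists are descriptions and not tests.

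Lining cells are flat cells of the osteoblast lineage that cover bone surfaces where no bone is being formed or removed. Sclerostin, made mainly by osteocytes, binds the Wnt co-receptors Lrp5 and Lrp6 and so restrains Wnt signalling and bone formation, and antibodies that block it raise bone formation. Lining cells are known to be able to return to matrix production, the work of the osteoblast: secretion of type I collagen with smaller amounts of the fibrillar types V and XI, and of proteins such as osteocalcin and osteonectin.

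All rats in the 3 groups were female, of the SD (Sprague-Dawley) strain, 6 months old when their ovaries were removed, and left untreated for 8 weeks, so the vehicle group also lacked ovaries. Dosing was weekly and subcutaneous, and the vehicle was a buffer of Tween 20, sucrose and sodium acetate. Calcein, a dye laid down in new bone and given 13 and 3 days before death, guided the laser capture of cells from sections of the third lumbar vertebra of 5 animals per group. From each capture 1.5 ng of RNA was amplified and hybridised to an Affymetrix rat array. The labels do not say which arrays share a rat with captures of other cells, and p-values describe the spread between arrays. Replicate numbers are names in the order of the arrays only. All levels below are log2 of the deposited RMA intensity, a change is a difference of group means on that scale (1 unit is a 2-fold change), errors are standard errors unless marked SD, and a gene passed where limma's Benjamini-Hochberg adjusted p over all genes tested was under 0.05.

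The captures held lineage transcripts beside those of marrow and of other bone cells. Col1a1, Col1a2, Bglap, Sparc, Alpl, Ibsp and Pth1r lay above the median of their array in all 15 arrays. So did genes of other cells: the osteoclast genes Ctsk (12.26 to 13.31) and Acp5 (9.54 to 11.79), the globin gene Hbb (12.21 to 12.86), the granulocyte gene Camp, the platelet gene Pf4 and the osteocyte genes Mepe and Dmp1. Sost, which encodes sclerostin, the muscle gene Acta1 and Tnfrsf11b were above it in 0 of 15 arrays. The signal range of an array (90th minus 50th percentile of log2 values) averaged 3.13 in vehicle arrays, and 3.07 with the small and 3.14 with the large dose. In an exact two-sided permutation test these differed from vehicle with p = 0.690 at 3 mg/kg and p = 0.976 at 50 mg/kg, where the smallest possible p was 0.00794. In such bulk captures, fewer cells of a type and less RNA per cell cannot be told apart.

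The 23 genes that rose at 50 mg/kg were 0.198% of the genes tested, and Tnc, the 1 that fell, was 0.00862%. Unadjusted, 604 genes (5.21%) had p under 0.05. The rises ran from 0.63 (Zfp862) to 2.82 (Col11a1), with a median of 1.30, beside a median change of -0.01 over all genes tested. In 18 of the 23, all 5 treated arrays lay above all 5 vehicle arrays; 54 of all genes tested (0.465%) lay so far apart upward and 47 (0.405%) downward. The 5 genes whose groups overlapped were Col5a1, Col22a1, Lox, P4ha2 and Stat3. The plot of all genes sets these changes beside those at 3 mg/kg.

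**Figure D1:**
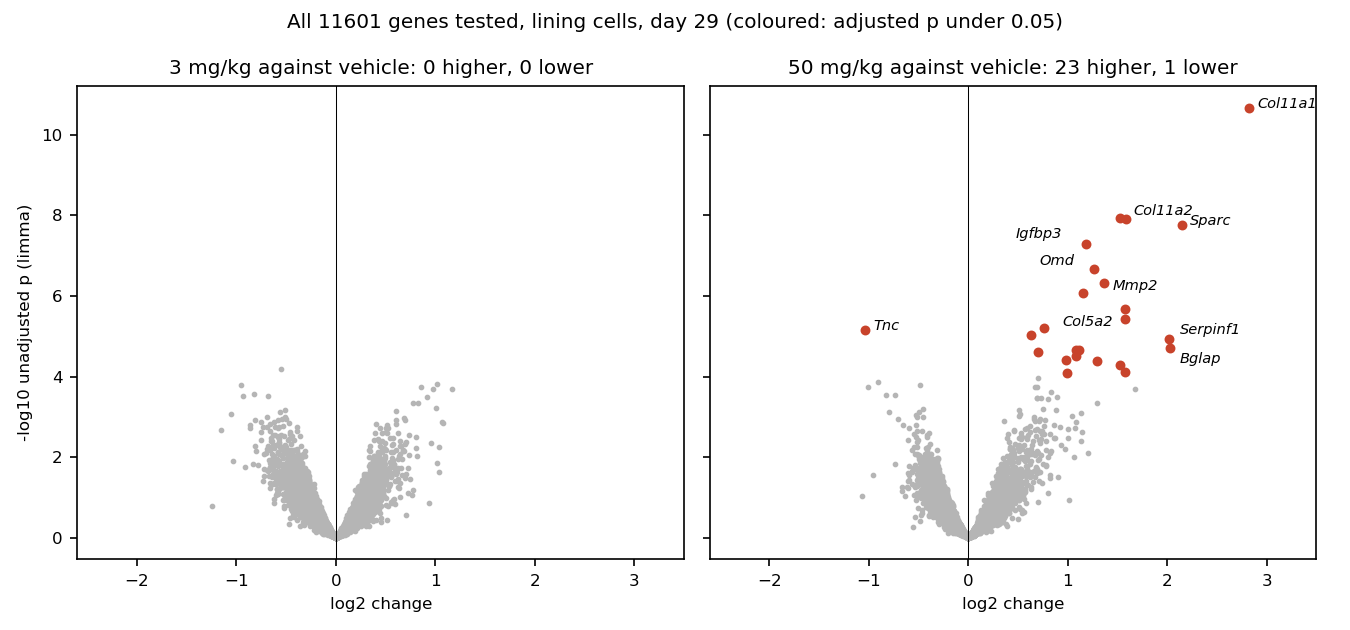
Log2 change (x axis) against −log10 of the unadjusted limma p (y axis) for each of 11601 genes in day 29 lining cells, 3 mg/kg left and 50 mg/kg right, both against the same 5 vehicle arrays. Coloured points passed an adjusted p of 0.05: 0 at 3 mg/kg, and 23 higher and 1 lower (Tnc) at 50 mg/kg, with Col11a1 farthest out at 2.82.

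Of 11 fibrillar collagen genes, which encode the rope-like collagens of bone and cartilage, 5 rose at 50 mg/kg and none fell, and their median change was 1.09. At 3 mg/kg none passed and the median was 0.15. Col11a1, a chain of type XI collagen that is a minor part of the type I fibril in bone, had the largest rise of all genes tested. Its levels were 3.86, 4.63, 4.54, 3.65 and 3.30 in the vehicle arrays, 4.17, 3.34, 4.98, 5.35 and 4.75 at 3 mg/kg and 6.52, 7.49, 5.55, 7.16 and 7.38 at 50 mg/kg. Every array at 50 mg/kg was above every vehicle array, and at 3 mg/kg the values ran from near the lowest vehicle array to above the highest. The change at 50 mg/kg was 2.82 ± 0.37 (95% confidence interval 2.09 to 3.56, 7.09-fold, adjusted p = 2.42e-07, limma). The 2 other probe sets of the gene were dim, with vehicle means of 2.08 and 2.45, and moved by 0.13 and 0.17.

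Col11a2, the partner chain of type XI, had levels of 3.27, 3.67, 3.79, 3.79 and 3.20 in the vehicle arrays, 3.19, 3.96, 4.37, 3.69 and 3.78 at 3 mg/kg and 5.28, 5.56, 3.81, 5.36 and 5.61 at 50 mg/kg. Replicate 3 at 50 mg/kg, at 3.81, sat next to the highest vehicle array, and the other 4 stood well apart. The change was 1.58 ± 0.25 (adjusted p = 4.69e-05, limma). For Col5a2, a chain of type V collagen, which helps to set fibril diameter, the levels were 6.24, 6.76, 6.93, 6.37 and 6.29 in the vehicle arrays, 6.39, 6.20, 6.65, 7.18 and 6.93 at 3 mg/kg and 7.75, 8.50, 7.36, 8.36 and 8.48 at 50 mg/kg. All treated arrays at 50 mg/kg were above all vehicle arrays, and those at 3 mg/kg ran from just below the lowest of them to above the highest. It rose by 1.57 ± 0.32 (adjusted p = 0.00444, limma), and its second probe set by 1.60. Col5a1, the partner chain, lay at 6.75 to 7.62 with vehicle and at 7.55 to 8.72 at 50 mg/kg, so that replicate 3 overlapped, and rose by 1.09 ± 0.25 (adjusted p = 0.0189, limma).

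Type I collagen is the main protein of bone, and Col1a1 and Col1a2 encode its chains. Col1a1 levels were 8.80, 9.33, 9.60, 8.14 and 8.45 in the vehicle arrays, 8.92, 9.07, 9.55, 9.48 and 9.48 at 3 mg/kg and 10.68, 10.47, 9.76, 10.54 and 10.72 at 50 mg/kg. The 50 mg/kg arrays were all higher than the vehicle arrays, though replicate 3 exceeded the highest of them only narrowly. The rise was 1.57 ± 0.38 (2.97-fold, adjusted p = 0.0391, limma), and a second probe set changed by 2.51. This call was among the least stable of the 24: it ended in 10 of 17 alternative settings, which were 7 of the 10 refits with an array left out, no filter on low values (adjusted p = 0.0516), array weights (0.0631) and the intensity trend (0.0507). Col1a2 differed by 1.67 ± 0.43 and did not pass (adjusted p = 0.0784), with 9.68 to 10.97 in vehicle and 11.19 to 12.58 in 50 mg/kg arrays. The groups did not overlap. The standard error rests on the spread in all 20 groups of lining cells, not on these groups alone. The other 5 members, Col3a1, Col5a3, Col27a1, Col24a1 and Col2a1, had changes of -0.18 to 0.72 and none passed. Among 14 other collagens, Col22a1, a collagen that associates with fibrils, was the one that rose (1.09 ± 0.24, adjusted p = 0.0153), and the median of that list was 0.10.

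**Figure D2:**
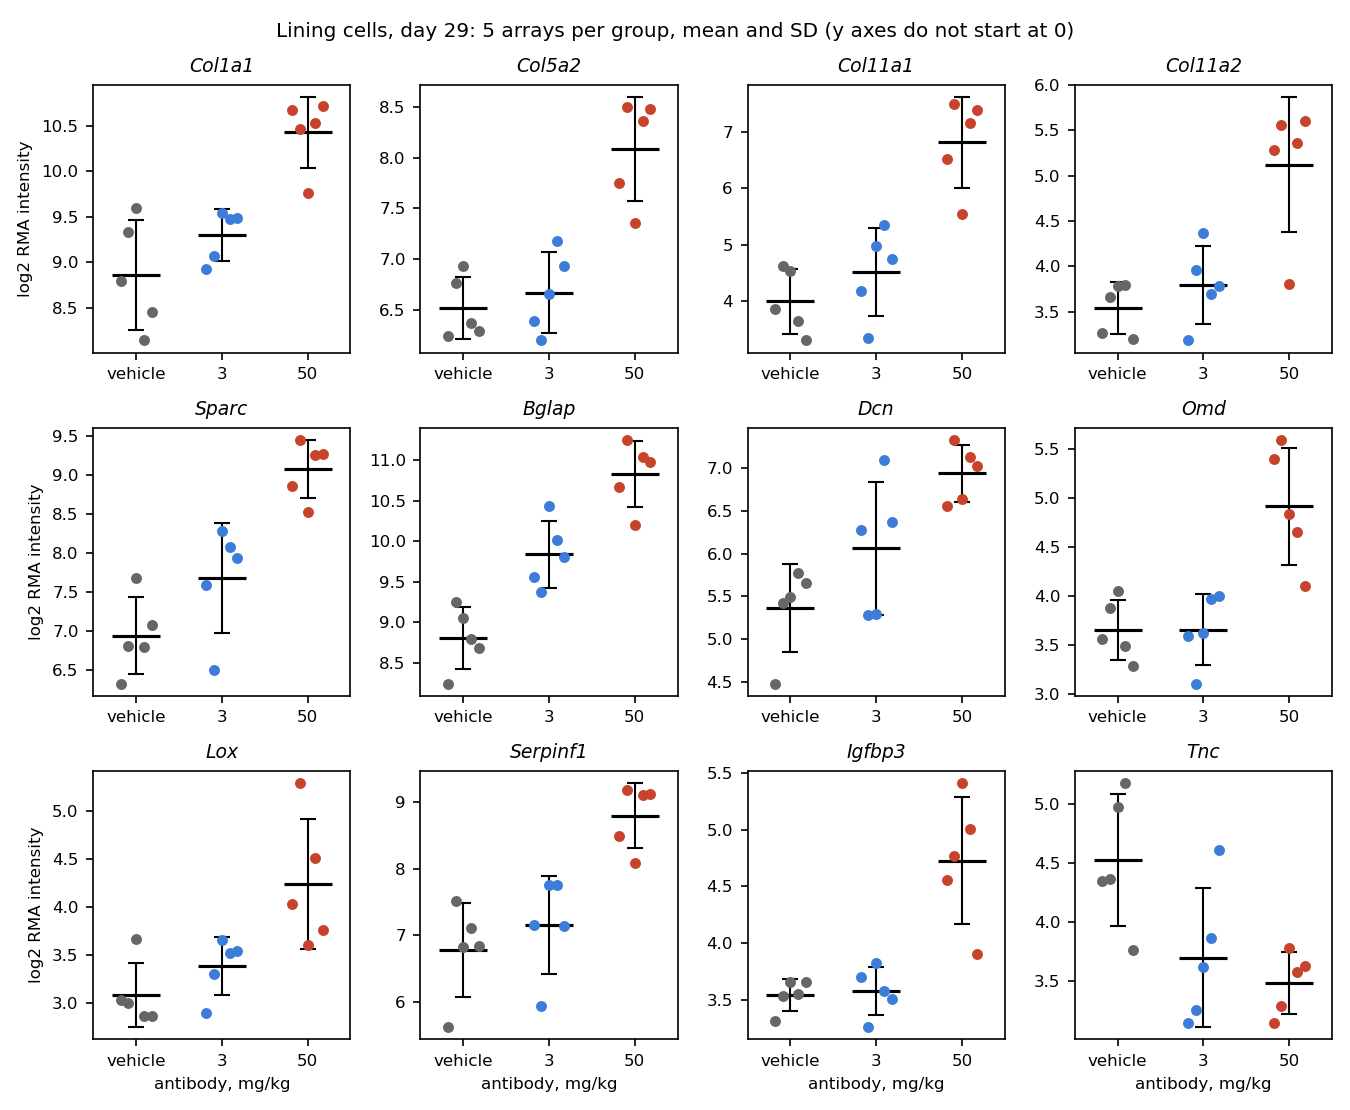
Log2 RMA intensity (y axis, not from 0) of 12 genes in each of the 15 arrays by group (x axis: vehicle, 3 mg/kg, 50 mg/kg); points are arrays, horizontal lines group means and bars 1 SD, n = 5. Bglap is the one gene of the 12 whose 3 mg/kg arrays all lie above the vehicle arrays, and Tnc is the one that is lower with 50 mg/kg.

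Noncollagenous bone matrix genes divided: of 29 tested, 5 rose (Sparc, Bglap, Dcn, Cthrc1 and Omd), 1 fell (Tnc) and 23 did not pass, with a median of 0.18. Sparc encodes osteonectin, which binds collagen and calcium. Its levels were 6.32, 6.80, 7.67, 6.80 and 7.07 in the vehicle arrays, 7.58, 6.50, 8.28, 8.08 and 7.93 at 3 mg/kg and 8.86, 9.45, 8.53, 9.26 and 9.28 at 50 mg/kg. The 50 mg/kg group was wholly above the other 2 groups, while 3 of the 5 arrays at 3 mg/kg were above the highest vehicle array. Sparc rose by 2.14 ± 0.35 at 50 mg/kg (4.42-fold, adjusted p = 5.08e-05, limma). A second probe set of equal brightness gave 1.13.

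Bglap encodes osteocalcin, the protein of mature osteoblasts that binds bone mineral. Levels were 8.24, 9.26, 9.05, 8.79 and 8.69 in the vehicle arrays, 9.56, 9.37, 10.44, 10.02 and 9.81 at 3 mg/kg and 10.66, 11.25, 10.21, 11.04 and 10.98 at 50 mg/kg. Both doses stood wholly above vehicle, and the 50 mg/kg arrays were mostly above those at 3 mg/kg. The change at the larger dose was 2.02 ± 0.45 (4.06-fold, adjusted p = 0.0152, limma), and at 3 mg/kg it was 1.03, which did not pass (adjusted p = 0.765).

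Osteomodulin, a small leucine-rich proteoglycan of mineralised tissue encoded by Omd, had levels of 3.56, 3.88, 4.05, 3.49 and 3.29 in the vehicle arrays, 3.59, 3.11, 3.63, 3.97 and 4.00 at 3 mg/kg and 5.40, 5.59, 4.84, 4.65 and 4.11 at 50 mg/kg. The 3 mg/kg and vehicle arrays covered nearly the same span, and all 50 mg/kg arrays were higher. The change was 1.26 ± 0.22 (adjusted p = 0.000417, limma). Decorin (Dcn), a related proteoglycan that coats collagen fibrils, rose by 1.57 ± 0.31 (adjusted p = 0.00267), with levels of 4.48 to 5.77 in vehicle and 6.55 to 7.33 in 50 mg/kg arrays. Cthrc1, a secreted protein with a short collagen-like stretch, rose by 1.53 ± 0.36 (adjusted p = 0.0273), with levels of 5.13 to 6.14 in vehicle and 6.51 to 7.69 in 50 mg/kg arrays.

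Tenascin-C, an adhesion-modulating matrix glycoprotein encoded by Tnc, was the single gene that fell. Its levels were 4.35, 4.36, 4.97, 5.18 and 3.77 in the vehicle arrays, 3.15, 3.26, 3.62, 3.87 and 4.61 at 3 mg/kg and 3.15, 3.29, 3.78, 3.58 and 3.63 at 50 mg/kg. Replicate 5 of vehicle and replicate 3 at 50 mg/kg had nearly the same value, and the other vehicle arrays were higher than all 50 mg/kg arrays. The change was -1.04 ± 0.22 at 50 mg/kg (adjusted p = 0.00683, limma) and -0.82 at 3 mg/kg (adjusted p = 0.383). Other well-known bone proteins of the list did not pass: Ibsp (bone sialoprotein) differed by -0.10, Spp1 (osteopontin) by -0.30 and Postn (periostin) by 0.05. The differences of Smoc2 (1.20, adjusted p = 0.602), Thbs4 (1.14, 0.336) and Ogn (-0.73, 0.75) were larger but did not pass either.

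The stretches of 250 bases before the start of the 4 genes with the largest rises are given because these genes moved together; they are from RefSeq (build GRCr8), 5′ to 3′ on the gene's strand, and capitals mark the core of RUNX sites, TGTGGT or its reverse complement ACCACA. RUNX factors drive osteoblast genes, and TCF/LEF factors carry Wnt signals to DNA.
Col11a1, chr2:204508886-204509135, plus strand: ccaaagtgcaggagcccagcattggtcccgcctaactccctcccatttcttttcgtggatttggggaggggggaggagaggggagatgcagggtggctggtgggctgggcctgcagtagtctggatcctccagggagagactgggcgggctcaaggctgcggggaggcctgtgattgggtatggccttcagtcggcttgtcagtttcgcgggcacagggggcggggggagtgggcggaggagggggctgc
Sparc, chr10:40038817-40039066, minus strand: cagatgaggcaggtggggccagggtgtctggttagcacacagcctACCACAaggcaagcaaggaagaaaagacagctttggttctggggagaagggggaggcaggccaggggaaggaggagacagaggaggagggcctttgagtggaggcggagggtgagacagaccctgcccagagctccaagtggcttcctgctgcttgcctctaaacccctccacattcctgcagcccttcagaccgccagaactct
Bglap, chr2:176137319-176137568, minus strand: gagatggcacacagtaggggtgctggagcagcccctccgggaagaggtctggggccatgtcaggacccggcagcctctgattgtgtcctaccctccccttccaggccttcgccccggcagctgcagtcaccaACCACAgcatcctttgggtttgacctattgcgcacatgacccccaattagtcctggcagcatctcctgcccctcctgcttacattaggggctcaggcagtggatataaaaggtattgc
Serpinf1, chr10:60760899-60761148, minus strand: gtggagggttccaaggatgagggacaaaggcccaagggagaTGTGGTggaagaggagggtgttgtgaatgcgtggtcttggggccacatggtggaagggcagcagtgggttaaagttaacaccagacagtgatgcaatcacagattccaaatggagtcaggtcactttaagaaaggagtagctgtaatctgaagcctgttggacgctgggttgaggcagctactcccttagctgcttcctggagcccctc
A promoter entry was found for 16 of the 23 genes. The RUNX core stood in 5 of these 16 stretches (31.2%: Bglap, Cdh15, P4ha2, Serpinf1 and Sparc), beside 10.9% of 9646 tested genes with an entry and 14.5% of all 33469 entries. In Bglap it began 118 bases before the start, in Serpinf1 209 and in Sparc 205. The TCF/LEF cores CTTTGAA and CTTTGAT, sought on both strands, stood in 0 of 16, beside 5.16% of the tested genes with an entry and 7.58% of all entries. These are matches of letters in a short window and no comparison of them was tested.

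Enzymes and chaperones that fold, trim and crosslink collagen came next. Of 21 tested, 3 rose at 50 mg/kg, none fell, and the median was 0.34 (0.00 at 3 mg/kg). Lysyl oxidase (Lox), the enzyme that starts collagen crosslinks, had levels of 3.04, 3.00, 3.67, 2.87 and 2.87 in the vehicle arrays, 2.91, 3.31, 3.66, 3.52 and 3.54 at 3 mg/kg and 4.04, 5.29, 3.60, 4.51 and 3.76 at 50 mg/kg. Vehicle replicate 3 was the exception among low vehicle arrays and overlapped with replicate 3 at 50 mg/kg. Lox rose by 1.15 ± 0.22 (adjusted p = 0.0012, limma). P4ha2, a catalytic subunit of prolyl 4-hydroxylase, rose by 0.77 ± 0.16 (adjusted p = 0.00653), and its dimmer second probe set moved by -0.09. Serpinh1, the collagen chaperone of the endoplasmic reticulum, rose by 0.70 ± 0.16 (adjusted p = 0.0161). Fkbp10 (0.84, adjusted p = 0.0894), Pcolce (0.74, 0.353) and Bmp1 (0.69, 0.106), which act in folding and in cutting procollagen, did not pass. Fkbp7, another prolyl isomerase of that compartment and no member of the list, rose by 0.99 ± 0.24 (adjusted p = 0.0398).

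Secreted regulators were also among the 23. Serpinf1 encodes pigment epithelium-derived factor, whose loss causes a form of brittle bone disease. Its levels were 5.62, 7.52, 6.82, 7.11 and 6.83 in the vehicle arrays, 7.16, 5.94, 7.76, 7.75 and 7.14 at 3 mg/kg and 8.49, 9.19, 8.09, 9.11 and 9.13 at 50 mg/kg. Every 50 mg/kg array was above every vehicle array, and vehicle replicate 1 was far below the other vehicle arrays. Serpinf1 rose by 2.02 ± 0.43 (4.06-fold, adjusted p = 0.00945, limma).

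Igfbp3, a carrier of insulin-like growth factors, had levels of 3.32, 3.53, 3.66, 3.55 and 3.66 in the vehicle arrays, 3.70, 3.26, 3.82, 3.58 and 3.51 at 3 mg/kg and 4.56, 4.76, 5.41, 5.00 and 3.90 at 50 mg/kg. Vehicle and 3 mg/kg arrays shared one narrow span, and the 50 mg/kg arrays were higher and more spread. The rise was 1.18 ± 0.20 (adjusted p = 0.000121, limma), and a second probe set gave 1.22. It was the 1 of 11 genes of the insulin-like growth factor list to pass; Igfbp5 differed by 0.97 (adjusted p = 0.544). Mmp2, a protease that degrades denatured collagen, rose by 1.37 ± 0.25 (adjusted p = 0.000804), with levels of 5.21 to 6.22 in vehicle and 6.93 to 7.51 in 50 mg/kg arrays, as 1 of 17 osteoclast regulators. A dim second probe set of Mmp2 moved by -0.07. Enpp2, which makes lysophosphatidic acid, rose by 0.99 ± 0.23 (adjusted p = 0.0229).

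The remaining rises concerned genes of other kinds. Cdh15 (M-cadherin, an adhesion protein) rose by 1.11 ± 0.25 (adjusted p = 0.0153) and Zfp862, a zinc-finger gene, by 0.63 ± 0.13 (adjusted p = 0.00833). The vehicle means of Zfp862 (2.75) and of Lox (3.09) lay below the medians of all vehicle arrays (3.16 to 3.30), so both rises began from dim signals. Swi5, a factor of recombination repair, had levels of 5.95, 6.21, 6.01, 5.85 and 6.99 in the vehicle arrays, 7.63, 5.75, 5.84, 7.63 and 7.55 at 3 mg/kg and 7.09, 8.07, 7.66, 8.01 and 7.83 at 50 mg/kg. All 50 mg/kg arrays were above vehicle, and at 3 mg/kg the arrays fell into 2 low and 3 high values. It rose by 1.53 ± 0.24 (adjusted p = 4.69e-05, limma). Stat3, a transcription factor of cytokine signalling, had levels of 3.88, 4.69, 4.86, 6.50 and 5.77 in the vehicle arrays, 6.31, 5.92, 6.53, 6.50 and 6.26 at 3 mg/kg and 5.98, 6.68, 6.67, 6.57 and 6.27 at 50 mg/kg. The arrays of both doses covered nearly the same span, and the vehicle arrays were widely spread. The change was 1.30 ± 0.30 (adjusted p = 0.0232), but a second probe set of similar brightness moved by -0.18, so the direction depended on the probe set.

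**Figure D3:**
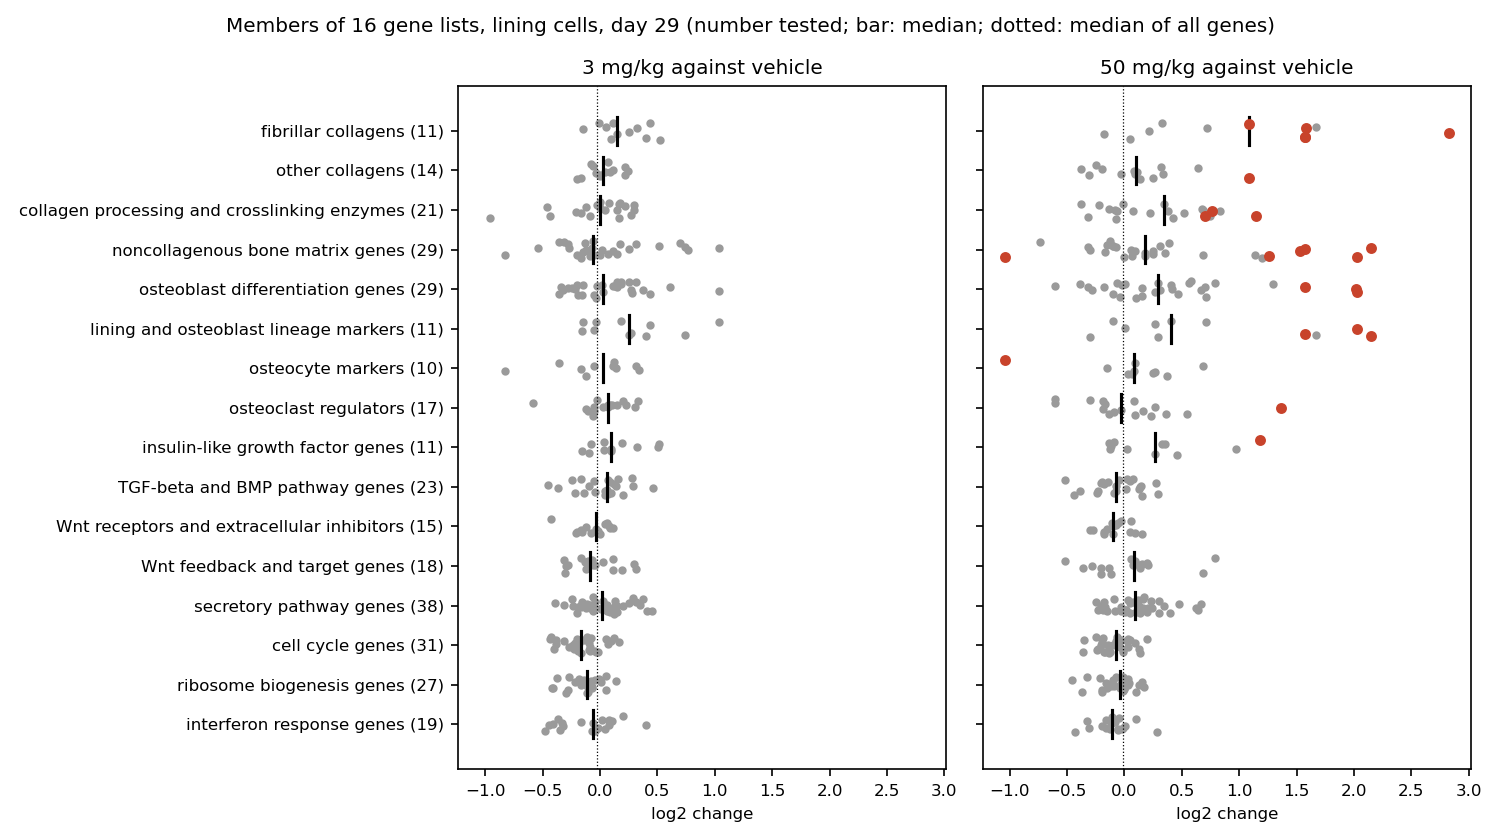
Log2 change against vehicle (x axis) of each tested member of 16 gene lists (y axis, number tested in brackets) at 3 mg/kg (left) and 50 mg/kg (right); coloured points passed an adjusted p of 0.05, bars are list medians and the dotted line is the median of all genes. At 50 mg/kg the fibrillar collagens have the highest median, 1.09, and at 3 mg/kg no point is coloured.

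Of 15 receptors and extracellular inhibitors of the Wnt pathway 0 passed at either dose, with a median of -0.03 at 3 mg/kg and one of -0.10 at 50 mg/kg, and of 18 feedback and target genes 0 passed, with medians of -0.08 and 0.08. Over all genes tested 0.198% rose at 50 mg/kg and 0.0% at 3 mg/kg, so a count of 0 in lists of this size is near the background. By limma at 50 mg/kg, Lrp4 differed by -0.18 and Lrp6, a co-receptor, by 0.10. The Wnt targets Twist1 (0.79, adjusted p = 0.549), Gja1, a connexin of gap junctions (0.69, 0.0715), Lef1 (-0.28, 0.998) and Ccn4 (0.21, 0.998) had values on both sides of 0. Sost, Lrp5, Axin2, Tcf7, Tnfrsf11b and Tnfsf11 lay below the level needed for the test and were not tested. Dkk1, Runx2 and Sp7 were not analysed here.

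Differentiation genes of the osteoblast gave 3 rises in 29 (Col1a1, Serpinf1 and Bglap) and a median of 0.29. Those that did not pass included Alpl, the alkaline phosphatase of mineralising cells (0.29), Dlx5, a transcription factor (0.71, adjusted p = 0.668), Creb3l1, a regulator of collagen secretion (0.67, adjusted p = 0.0715), and Cgref1 (1.29, adjusted p = 0.133). No member passed among 23 genes of the TGF-beta and BMP pathway (median -0.07), 38 of the secretory pathway (0.09), 31 of the cell cycle (-0.08), 27 of ribosome biogenesis (-0.04), 13 p53 targets (0.02), 19 interferon response genes (-0.11) or 18 stromal progenitor genes (-0.03). Over all genes tested 0.198% rose and 0.00862% fell at 50 mg/kg, so a count of 0 in these lists is near the background. In the same order, 10, 26, 8, 7, 7, 3 and 8 members were above 0 at 50 mg/kg, beside 5500 of all 11601 genes tested.

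At 3 mg/kg, 0 of 11601 genes rose (0.0%) and 0 fell (0.0%) by limma, while 736 (6.34%) had an unadjusted p under 0.05. With array weights 1 gene passed, 2 without vehicle replicate 4 and 1 without vehicle replicate 5. The 23 genes that rose at 50 mg/kg differed from vehicle by -0.05 to 1.16 at 3 mg/kg, with a median of 0.30. Both comparisons share the 5 vehicle arrays, so these values are not independent of those at 50 mg/kg. All 5 arrays at 3 mg/kg were above all vehicle arrays in 1 of the 23, Bglap. Over all genes tested this was so for 21 (0.181%), and 26 (0.224%) were wholly lower.

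Beyond Bglap, the largest such separations at 3 mg/kg, none of which passed, were of Sorl1, a sorting receptor (1.01, adjusted p = 0.383, with 7.02 to 8.12 in vehicle and 8.14 to 9.07 in treated arrays), and the mast cell protease Mcpt1 (1.01, 0.737). On the low side they were of Zdhhc9 (-0.66, 0.614), Mroh8 (-0.62, 0.614) and Dapk2 (-0.61, 0.608). These 5 differed at 50 mg/kg by 0.26, 0.31, -0.21, -0.29 and -0.11. Wholly lower at 50 mg/kg but not passing were LOC102555173 (-0.91, adjusted p = 0.0626), the metallothionein Mt2A (-0.79, 0.194), Ago1 (-0.54), Utp14a (-0.52), Usp33 (-0.52), Cacna2d3 (-0.52), Il2rg (-0.51) and Dffa (-0.50).

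The doses were also set against each other directly. In 50 minus 3 mg/kg, 8 genes (0.069%) were higher and 4 (0.0345%) lower at the larger dose, and 727 (6.27%) had an unadjusted p under 0.05. The higher genes were Col11a1 (2.30, adjusted p = 0.000159), Cgref1 (1.62, 0.0321), Cthrc1 (1.58, 0.0321), Col5a2 (1.42, 0.0321), Col11a2 (1.32, 0.00282), Omd (1.26, 0.000895), Igfbp3 (1.15, 0.000613) and Col5a1 (1.09, 0.0321). All but Cgref1 are among the 23. The 23 were chosen by their values in the same 50 mg/kg arrays, so this overlap is partly built in. The other 16 of the 23, Bglap (0.99, 0.706), Sparc (1.40, 0.0784) and Stat3 (0.13, 0.976) among them, did not pass between the doses.

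Lower at 50 than at 3 mg/kg were Mt2A (-1.10, adjusted p = 0.0133), the lymphocyte activation antigen Cd69 (-1.06, 0.0321) and the T cell receptor chains Cd3d (-0.95, 0.0386) and Cd3e (-0.75, 0.0321). Cd3d levels were 4.89, 3.97, 4.14, 4.87 and 4.92 in the vehicle arrays, 4.42, 4.37, 4.24, 5.59 and 4.77 at 3 mg/kg and 3.39, 3.98, 4.21, 3.44 and 3.63 at 50 mg/kg. The 50 mg/kg arrays overlapped with the 2 lowest vehicle arrays, and those at 3 mg/kg lay within the vehicle span or, in replicate 4, above it. Cd69 was 0.70 at 3 mg/kg and -0.36 at 50 mg/kg against vehicle, neither of which passed. Of the 15 T and natural killer cell markers none passed against vehicle, and their mean level was 4.69 to 5.05 in vehicle arrays, 4.73 to 5.21 at 3 mg/kg and 4.60 to 4.93 at 50 mg/kg. The part of lymphocyte content in these 3 differences was not tested. A second, dim probe set of Cd3e differed from vehicle by -0.18 at the larger dose and -0.19 at the smaller.

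Markers of other cells in the captures give the setting of the matrix genes. Osteocyte markers (10 tested, Tnc the 1 that passed) had a mean level of 5.30 to 6.00 in vehicle arrays and 5.33 to 6.09 at 50 mg/kg, osteoclast markers (11, 0 passed) 7.21 to 7.54 and 7.21 to 7.66, erythroid markers (14, 0) 7.32 to 8.20 and 7.82 to 8.10, granulocyte markers (11, 0) 8.05 to 8.62 and 8.53 to 8.80, and B-lineage markers (10, 0) 6.20 to 6.83 and 6.16 to 6.74. All these ranges overlapped. Megakaryocyte and platelet markers had the highest median of the lists of other cells, 0.45 at 50 mg/kg (-0.04 at 3 mg/kg), and 0 of 13 passed. At 50 mg/kg 11 of these 13 were above 0, beside 5500 of all 11601 genes tested. In other lists it was 13 of 16 endothelial, 9 of 11 granulocyte and 5 of 15 adipocyte markers. Mean levels of the platelet list were 7.13 to 7.83 with vehicle, 6.61 to 7.94 at the smaller dose and 7.48 to 8.26 at the larger. Endothelial markers had a median of 0.12, with Cldn5, a tight junction gene, at 0.70 (adjusted p = 0.0516). Chondrocyte markers (7 tested) had a median of 0.14, adipocyte markers (15) -0.15, macrophage and monocyte markers (14) 0.08, skeletal muscle markers (16) -0.11 and smooth muscle and pericyte markers (11) 0.01, and none of these passed. With 0.198% of all genes tested rising at 50 mg/kg, counts of 0 in these marker lists are near the background. Lineage markers as a list (11 tested, 3 of them among the 23) ran from 6.55 to 7.02 with vehicle, 6.59 to 7.27 at 3 mg/kg and 7.26 to 7.70 at 50 mg/kg. The part of a changed cell mix in the rises was not tested.

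**Figure D4:**
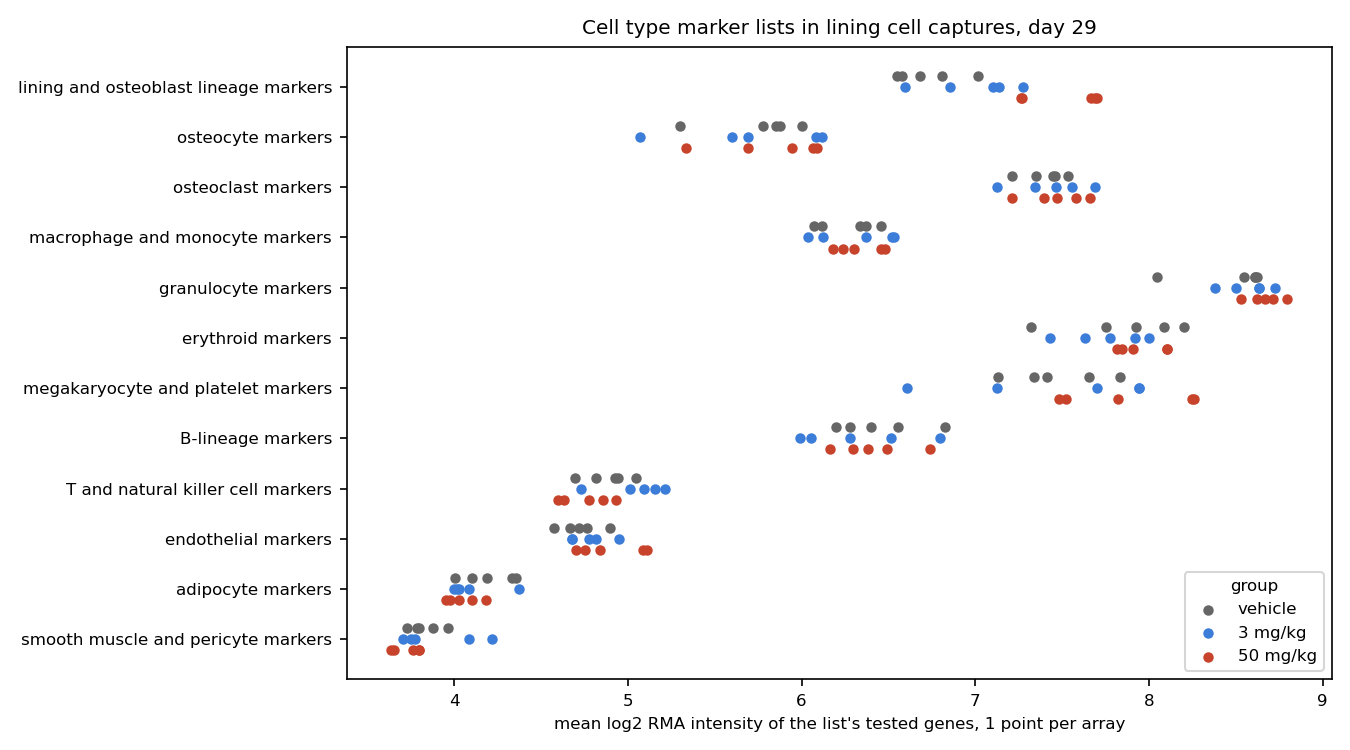
Mean log2 RMA intensity (x axis) of the tested genes of 12 marker lists (y axis), 1 point per array, coloured by group (5 arrays each). The lineage list, which holds Col1a1, Bglap and Sparc, is the one whose 50 mg/kg points all lie above its vehicle points; levels of different lists are not comparable with each other.

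The 24 calls depended on single arrays to different degrees. Col11a1, Sparc, Col11a2, Col5a2, Swi5, Mmp2, Omd and Igfbp3 passed whichever of the 10 arrays was left out. Without vehicle replicate 1, 11 genes passed (14 of the 24 calls were lost), without 50 mg/kg replicate 5 it was 12, without 50 mg/kg replicate 2 it was 15 and without 50 mg/kg replicate 4 it was 16. With only the compared groups in the fit, in place of all 20 groups of lining cells, 10 genes passed against vehicle and 3 between the doses. Of those 10, 9 were among the 24. The 14 calls lost in that fit were Dcn, Swi5, Cthrc1, Stat3, Omd, Lox, Tnc, Col5a1, Cdh15, Col22a1, Enpp2, Fkbp7, P4ha2 and Serpinh1. Zfp862 was not tested in it. Swi5 and Omd, kept with every array left out, thus depended on the other groups in the fit. Vehicle replicate 1 had the lowest mean over the 23 genes of its group (4.74, the others 5.04 to 5.33) and the lowest value in 12 of the 23, whereas 50 mg/kg replicate 2 had the highest (6.79, the others 6.15 to 6.64). At 3 mg/kg the means were 4.86 in replicate 2, which was lowest in 19 of the 23, and 5.39 to 5.80 in the others.

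Among the genes that lost the call, the highest adjusted p without 1 array was 0.086 for Bglap, 0.114 for Serpinf1, 0.435 for Stat3, 0.238 for Fkbp7, 0.0636 for Dcn and 0.0669 for Zfp862, each without vehicle replicate 1. It was 0.191 for Col1a1 and 0.0726 for Tnc without vehicle replicate 4. Without 50 mg/kg replicate 2 it was 0.172 for Cthrc1, 0.105 for Cdh15, 0.0987 for Col22a1 and 0.0593 for Lox. Without 50 mg/kg replicate 5 it was 0.157 for Col5a1 and 0.165 for P4ha2, and without 50 mg/kg replicate 4 0.264 for Enpp2 and 0.113 for Serpinh1. All 24 kept their direction in these refits. Between the doses, the call of Col11a1, Col11a2, Igfbp3 and Omd was kept with every array left out, and those of the other 8, T cell genes included, were not; without 3 mg/kg replicate 2, 4 of the 12 calls remained and none was of a lower gene.

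The same dose was followed in lining cells of other rats on days 8 and 85. The 23 genes were chosen by their day 29 values, so smaller values on the other days can follow from that choice. Of the 23 genes, 21 were above 0 on day 8 (median 0.86) and 6 passed: Col11a1, Col1a1, Cthrc1, Dcn, Lox and Omd; 20 genes in all rose then (0.172%). On day 85, 16 were above 0 (median 0.30) and Col11a1 alone passed; 42 genes in all rose (0.362%). Col11a1 changed by 2.05 ± 0.37 on day 8, 2.82 ± 0.37 on day 29 and 1.35 ± 0.37 on day 85. For Sparc these were 1.15 ± 0.35, 2.14 ± 0.35 and 0.31 ± 0.35. Bglap had 1.22 ± 0.45, 2.02 ± 0.45 and -0.05 ± 0.45. The values of these 3 genes were largest on day 29, the day that chose them, and the differences between days did not pass. Day 29 minus day 85 was 1.47 (adjusted p = 0.33, limma) for Col11a1, 1.84 (0.161) for Sparc and 2.07 (0.23) for Bglap.

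Differences between days passed for few genes. At 50 mg/kg the response of day 29 exceeded that of day 8 in 1 gene (0.00862%), Son, and differed from that of day 85 in 3 (0.0259%): Swi5 (1.89 ± 0.34, adjusted p = 0.00396), Cldn5 and Asb13. Swi5 was the 1 of the 23 in that set, with -0.37 on day 85. At 3 mg/kg the counts were 1 (0.00862%, Lenep) against day 8 and 2 (0.0172%) against day 85, namely Tnc (-1.60 ± 0.31, adjusted p = 0.0146) and Tfb2m. The Tnc change at 3 mg/kg was -0.82 on day 29 and 0.78 on day 85, so the response had opposite signs.

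**Figure D5:**
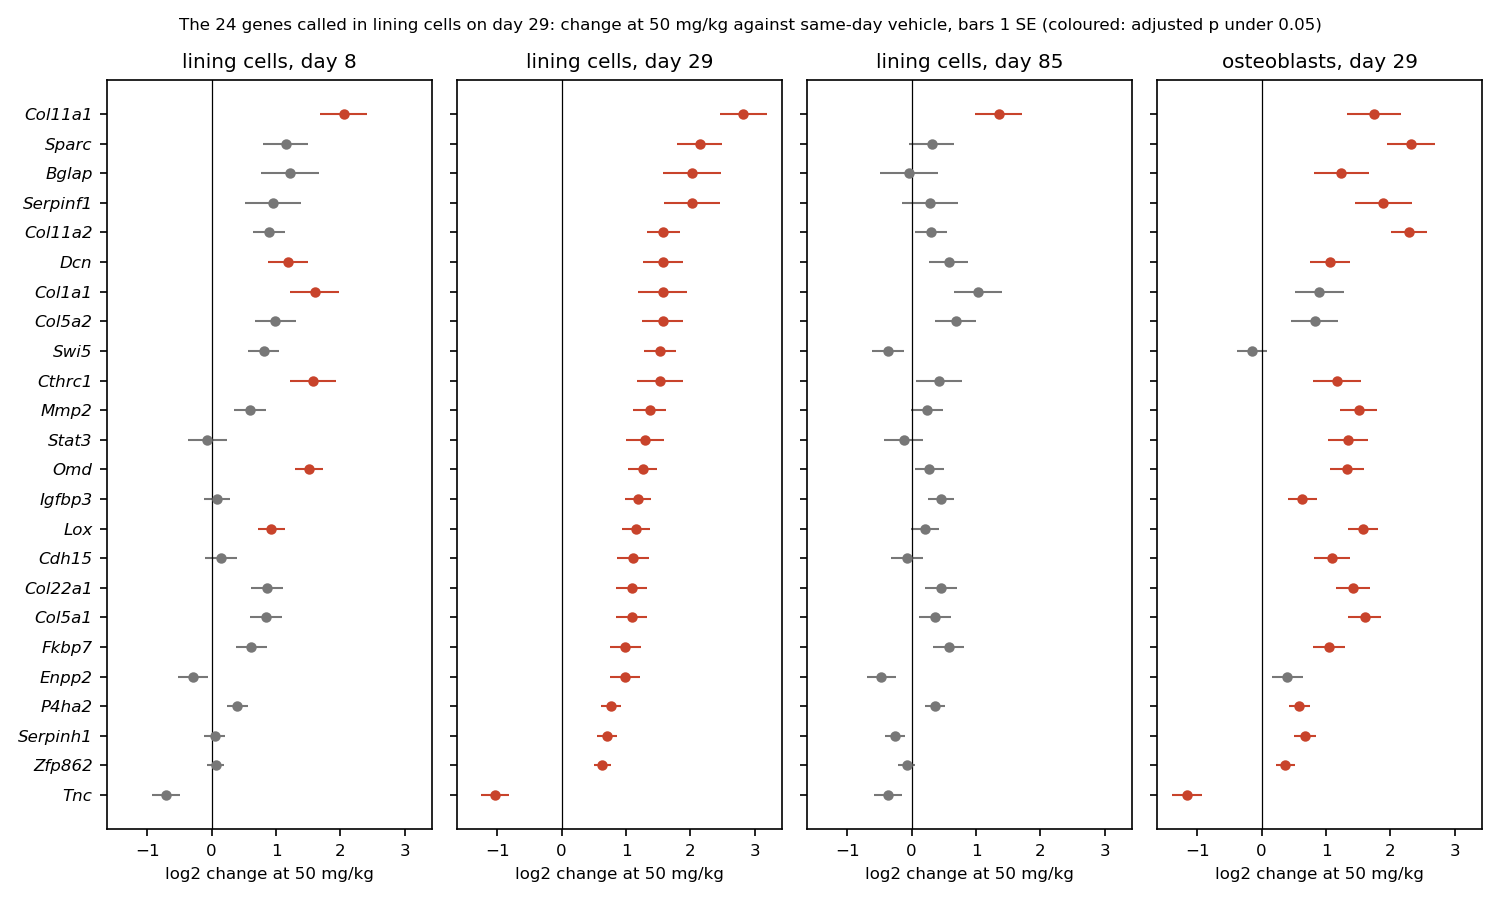
Log2 change at 50 mg/kg against same-day vehicle (x axis, bars 1 standard error) of the 24 genes called in day 29 lining cells (y axis), in lining cells on days 8, 29 and 85 and in osteoblasts on day 29; coloured points passed an adjusted p of 0.05. The day 29 lining cell panel is the one that chose the genes. Col11a1 is coloured in all 4 panels.

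Osteoblasts captured on day 29 were fitted together with the lining cells, over 12020 genes. Changes within each cell type were compared, not levels. The fit treated all arrays as independent, although both cell types may come from the same rats, which the labels do not name. The osteoblast values may therefore not be independent of those in lining cells, and the p-values take no account of shared rats. In osteoblasts 19 of the 23 genes rose at 50 mg/kg and 22 were above 0 (median 1.17). Of all 12020 genes, 930 (7.74%) rose in osteoblasts and 2230 fell. The 4 of the 23 that did not pass were Enpp2, Col1a1, Col5a2 and Swi5, the last at -0.15 ± 0.23. Sparc changed by 2.32 and Col11a2 by 2.29 in osteoblasts. Tnc was 1 of the 2230 that fell there (by 1.16 on the log2 scale, adjusted p = 8.43e-05, limma). The test of lining cells minus osteoblasts passed for 191 genes (1.59%) at 50 mg/kg and for 0 (0.0%) at 3 mg/kg, where 554 had an unadjusted p under 0.05. Of the 23, Swi5 passed that test (1.68 ± 0.33, adjusted p = 0.0048). The difference for Col11a1 was 1.08 (adjusted p = 0.272), and for Col11a2 -0.71 (0.279).

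Of the 191, the largest differences were Copg2, a coat protein of Golgi transport (2.04; 1.04 in lining cells and a change below 0 in osteoblasts), Macroh2a1 (1.94) and Postn (1.92; 0.05 and -1.86). On the other side were the Wnt target Ccn4 (-1.16; 0.21 and 1.36), Kcnj3 and Ablim3. With the signal range as a covariate, or with only the compared groups in the fit, 0 of these differences passed, and with quantile normalization 49 did. How signal range bears on them was not tested further.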

How the data were processed

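Rat Genome arrays of amplified RNA from laser-captured cells were analysed. Per the submitters' processing notes the authors used RMA, the affy package (1.38.1), R (3.0.1) and Affymetrix Expression Console, with the role of each not given in the sources used here. In the deposited table the values are an intensity per probe set on a linear scale (2.94 to 28282 over all arrays), and log2 was taken. The files give no signal over background. The day 29 means rest on 5 arrays per group, and their standard errors on the spread over all arrays of the fit.

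Of 31042 probe sets, 20826 name 1 gene, 436 several and 9780 none. The probe set with the highest mean in lining cells stood for each of 14217 genes (4525 have several), and genes above the array's median in at least 5 lining arrays were tested. limma 3.58.1 (R 4.3.3) was fitted to all 100 lining cell arrays with a mean for each of 20 groups, or to 197 arrays with osteoblasts. Adjusted p is Benjamini-Hochberg over all genes of a contrast. The code was tested on simulated data. Levels in marker lists are given as ranges without the test first planned.

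Genes were named by a rule: all that passed per dose, up to 8 that did not pass but were wholly apart where few passed, the 3 largest differences between responses in each direction, called members and up to 3 more of each of 30 lists, and 30 fixed genes; the text prints a part of these 153. Members and lists were chosen with earlier results of these data known. Alternatives were no filter, quantile normalization, the mean of probe sets, array weights, only the compared groups, the signal range as covariate, an intensity trend with robust moderation, and leaving out each array in turn.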

Additional observations from a re-analysis of the deposited data

Results flagged for a closer look

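Among the named genes' groups of 5 arrays, 90 were examined for an array far from the others by Dixon's 95% criterion, and 6 met it, where chance gives about 1 in 20. In 2 cases it was 50 mg/kg replicate 3, the lowest array of its group: Col11a2 at 3.81 (the others 5.28 to 5.61) and Col1a1 at 9.76 (10.47 to 10.72). In 2 cases it was vehicle replicate 1, lowest for Dcn at 4.48 (5.42 to 5.77) and Mmp2 at 5.21 (6.00 to 6.22). Vehicle replicate 3 was highest for Lox at 3.67 (2.87 to 3.04), and 3 mg/kg replicate 3 was highest for Serpinh1 at 4.22 (3.38 to 3.55).

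Responses differed between days or cell types by limma's test of the difference in the following genes, on the log2 scale. Between day 29 and day 8 they were Lenep at 3 mg/kg (1.22 ± 0.24, adjusted p = 0.0299) and Son at 50 mg/kg (0.96 ± 0.19, adjusted p = 0.0316). Between day 29 and day 85 they were Tnc (-1.60) and Tfb2m (-1.34) at 3 mg/kg and Swi5 (1.89), Cldn5 (1.20) and Asb13 (-1.38) at 50 mg/kg. Between lining cells and osteoblasts at 50 mg/kg 191 genes passed, of which the 3 with the largest difference in each direction were Copg2 (2.04), Macroh2a1 (1.94), Postn (1.92), Ccn4 (-1.16), Kcnj3 (-1.16) and Ablim3 (-1.10). None of these differences was kept under every alternative, and with each array left out in turn Swi5 against day 85 and Copg2 against osteoblasts were kept.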

How the results depend on the processing

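No named gene that passed turned its direction under any alternative. Genes passing at 3 mg/kg numbered 1 with array weights and 0 in the other settings with all arrays; leaving out each array gave 0 to 2. At 50 mg/kg, 24 became 10 with only the compared groups, and 9 of these 10 were among the 24. In the other settings with all arrays 23 to 31 genes passed, and 11 to 31 with an array left out. The 6 genes Col11a1, Sparc, Col11a2, Col5a2, Mmp2 and Igfbp3 passed in every setting. Stat3 and P4ha2 did not pass with the mean of probe sets, Col1a1 with no filter, array weights or the intensity trend, and Fkbp7 with no filter or quantile normalization. For 50 minus 3 mg/kg, 12 became 46 with array weights and 3 with only the compared groups, and 4 to 19 with an array left out; Col11a1 passed in every setting.

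Differences between responses were less stable. For day 29 minus day 8 at 3 mg/kg (1 gene) array weights gave 2 and only the compared groups 0 (0 to 1 with an array left out). At 50 mg/kg (1 gene) quantile normalization and only the compared groups gave 0, the mean of probe sets, the signal range covariate and the intensity trend 2 each, and array weights 16 (0 to 14). For day 29 minus day 85 at 3 mg/kg (2 genes) no filter and the signal range covariate gave 1, and array weights and only the compared groups 0 (0 to 6). At 50 mg/kg (3 genes) quantile normalization and the intensity trend gave 9, array weights 1, the signal range covariate 18 and only the compared groups 0 (1 to 13). For lining cells minus osteoblasts, 3 mg/kg gave 1 with array weights and 0 with any array left out; at 50 mg/kg, 191 became 49 with quantile normalization, 122 with the mean of probe sets, 506 with array weights and 0 when the signal range was a covariate or for only the compared groups (8 to 520). The causes were not tested. With only the compared groups the fit holds fewer arrays, and both the spread and the filter on low values are taken from those arrays alone. The signal range difference from vehicle, which passed no test, was -0.0535 at the smaller dose (-0.126 to 0.0220 with an array left out) and 0.0080 at the larger (-0.0645 to 0.0549), so its sign changed with some arrays left out. No paired analysis was possible because the labels give no replicate numbers and name no rat.

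The 5 arrays of amplified RNA per group limit the precision: a p that missed the threshold does not show that a gene did not respond.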
